A study of Mus musculus with 12 samples.

Results

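Aquaporins are channel proteins of the cell membrane that let water pass, and some of them also carry glycerol or ions. Of 45777 genes in the count table, 7 were examined here by their gene symbols: Aqp1, Aqp2, Aqp3, Aqp4, Aqp5, Aqp6 and Aqp11. They were measured in 12 libraries of mpkCCDc11 cells, an established murine line of cortical collecting duct epithelium whose genotype is labelled WT. Cells were transfected with control siRNA or with siRNA that targets TAZ, a Hippo pathway coactivator whose gene is Wwtr1. They were then exposed to vehicle or to dDAVP, a synthetic vasopressin that acts on the V2 receptor, at a basolateral concentration of 1e-09 M. The 4 resulting groups (control siRNA with vehicle, control siRNA with dDAVP, TAZ siRNA with vehicle, TAZ siRNA with dDAVP) have 3 libraries each. Every group had spent 3 days on permeable filters and another 24 h without serum and hormones. Exposures to dDAVP of 15 min, 30 min and 24 h are listed in the labels, with no statement of which applies here. The cells were of passages 11 to 16 of a single line. No label says that replicate libraries are separate cultures. The p-values therefore refer to the spread among these libraries alone, and that spread could be technical.

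In the collecting duct, vasopressin binds the V2 receptor on the basolateral face of principal cells, raises cyclic AMP and activates protein kinase A. AQP2 is then moved from vesicles into the apical membrane, and transcription of its gene is increased over a longer time. AQP3 and AQP4 form the basolateral exit for the water that AQP2 admits. AQP1 is the channel of the proximal tubule and the thin descending limb, AQP5 is best known from glands and lung, AQP6 lies in vesicles of intercalated cells, and AQP11 lies in the endoplasmic reticulum.

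Library totals were 45095331 to 61725339 estimated counts. Wwtr1, the gene the siRNA targets, checked the labels: it averaged 181 ± 4.4 CPM (counts-per-million, scaled by TMM; SD, n = 3 here and below) with control siRNA and vehicle and 116 ± 2.5 CPM with TAZ siRNA and vehicle. With dDAVP it averaged 166 ± 6.6 CPM and 114 ± 11 CPM. The knockdown was therefore partial, by 0.63 ± 0.05 on the log2 scale with vehicle (SE, edgeR adjusted p = 4e-06) and by 0.54 ± 0.05 with dDAVP (adjusted p = 5.54e-06). Of 12 genes listed as principal cell markers, a list that includes Aqp2, Aqp3 and Aqp4, all had a count. Their summed level was 459 to 579 CPM over the 12 libraries. Most of it came from Gata3 (167 to 233 CPM), Hsd11b2 (128 to 164 CPM) and Scnn1a (88.4 to 142 CPM). Scnn1b reached only 1.19 CPM and Fxyd4 0.764 CPM. Elf5 and Kcnj1 of that list stayed at or under 9 counts per library. Of 7 genes listed as proximal tubule markers, Lrp2 stood at 125 to 189 CPM, and the others were far lower. Slc5a12 and Slc22a6 were at 0 in all 12 libraries. Slc34a1 and Slc5a2 reached at most 4 counts, Aqp1 10 counts and Cubn 1.22 CPM.

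Aqp2, Aqp5 and Aqp6 lie next to each other on the plus strand of chromosome 15, within 26423 bases. In GRCm38 (mm10), the build of the deposited coordinates, Aqp2 spans chr15:99579056-99584545, Aqp5 chr15:99591028-99594829 and Aqp6 chr15:99598468-99605478. The gap from Aqp2 to Aqp5 is 6482 bases and the gap from Aqp5 to the longer Aqp6 transcript is 3638 bases. Aqp3 lies at chr4:41092724-41098183, Aqp11 at chr7:97726379-97738247 and Aqp1 at chr6:55336299-55348555. The sequence directly upstream of the RefSeq start is shown for Aqp2, whose mRNA changed most among the 5 tested members, and for Aqp3, the basolateral partner, both from RefSeq on GRCm38.p6. The Aqp2 stretch is chr15:99578806-99579054 on the plus strand, and the Aqp3 stretch is chr4:41098184-41098433 on the minus strand. Both are printed 5′ to 3′, and capitals mark matches to the motifs searched.
Aqp2: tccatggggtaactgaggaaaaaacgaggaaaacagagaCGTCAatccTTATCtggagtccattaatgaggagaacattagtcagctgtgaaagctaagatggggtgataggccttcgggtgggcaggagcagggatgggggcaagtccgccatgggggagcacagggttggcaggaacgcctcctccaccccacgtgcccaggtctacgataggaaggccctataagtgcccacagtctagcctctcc
Aqp3: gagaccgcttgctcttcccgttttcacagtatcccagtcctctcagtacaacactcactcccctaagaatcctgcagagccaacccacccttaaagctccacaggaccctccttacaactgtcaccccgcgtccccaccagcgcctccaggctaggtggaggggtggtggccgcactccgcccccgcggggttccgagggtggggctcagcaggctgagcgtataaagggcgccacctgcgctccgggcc

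The motifs were searched on both strands in the 250 bases before each start. The core of a cAMP response element was searched as TGACG, and the full element, which contains that core, as TGACGTCA. The motif read by GATA factors was searched as GATAA. The motif read by the TEAD partners of TAZ was searched as GGAATG, and the motif read by AP-1 as TGANTCA. The Aqp2 window held TGACG on the minus strand, printed above as CGTCA with its leftmost base at position -211 from the start. It also held GATAA on the minus strand, printed as TTATC with its leftmost base at position -202. None of the 5 motifs was found in the same window of Aqp3, Aqp5 or Aqp6. Of these, the Aqp5 window lies mostly inside the first exon of a GENCODE transcript that starts at position 99590782, and the Aqp6 window lies inside the span of its longer transcript model. For Aqp5 and Aqp6 the search was therefore not of sequence upstream of every annotated start. Among 32851 RefSeq windows of this length, 17.8% held TGACG, 1.55% TGACGTCA, 22.6% GATAA, 12.6% GGAATG and 6.75% TGANTCA. A match is a string of letters and not a measured binding site.

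Aqp2, the apical channel of principal cells, was nearly silent without dDAVP. The 3 libraries with control siRNA and vehicle held 19, 16 and 20 counts of Aqp2, which is 0.337, 0.34 and 0.343 CPM. With control siRNA and dDAVP they held 2610, 1779 and 1647 counts, or 44.8, 29.3 and 30 CPM. All 3 dDAVP libraries lay far above all 3 vehicle libraries, and the first was the highest of its group. The fitted rise was 6.66 ± 0.34 on the log2 scale (SE, edgeR adjusted p = 1.23e-07), a 101-fold change. The ratio of the summed counts, scaled by library totals, was 101 with a 95% exact interval of 77.6 to 134. That interval, like the others of this kind below, covers counting error only.

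After TAZ siRNA, Aqp2 had 9, 0 and 0 counts with vehicle and 611, 645 and 413 counts with dDAVP. In CPM, the dDAVP libraries were at 10.3, 13.7 and 9.11. The rise with dDAVP was 7.76 ± 0.49 on the log2 scale (adjusted p = 1.39e-06), against a vehicle group whose counts came from a single library. Leaving out that library, replicate 1, left a baseline of 0 counts and moved the fitted value to 12.25, which depends on the added prior count and is no bound. The summed counts differed 224-fold, with an exact interval of 118 to 491.

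With dDAVP, Aqp2 was lower after TAZ siRNA than after control siRNA in all 3 libraries against all 3, at 11 ± 2.4 CPM and 34.7 ± 8.8 CPM. The change was -1.66 ± 0.21 on the log2 scale (adjusted p = 0.000555), which is 3.15-fold lower. With vehicle, the same comparison set 9 counts against 55 in all, a ratio of 0.144 with an exact interval of 0.0626 to 0.294. That difference of -2.75 ± 1.02 did not pass the threshold with edgeR over all 12 libraries (adjusted p = 0.152). It passed with DESeq2 (-2.81, adjusted p = 0.000148) and, narrowly, with edgeR on the compared groups alone (-2.76, adjusted p = 0.0486). Without replicate 1 of the TAZ siRNA vehicle group the fitted value was -7.25, again against a group at 0 counts.

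Aqp3, the basolateral water and glycerol channel, was a low-count gene in this line. Its libraries held 26, 29 and 27 counts with control siRNA and vehicle and 54, 68 and 55 with control siRNA and dDAVP. After TAZ siRNA they held 28, 37 and 19 counts with vehicle and 32, 18 and 33 with dDAVP. The control siRNA groups did not overlap, at 0.461 to 0.616 CPM with vehicle and 0.927 to 1.12 CPM with dDAVP, whereas the TAZ siRNA groups did, at 0.307 to 0.602 CPM and 0.382 to 0.728 CPM. Aqp3 rose by 0.99 ± 0.28 on the log2 scale with dDAVP after control siRNA (edgeR adjusted p = 0.0189). That call was lost without replicate 1 or replicate 3 of the control siRNA vehicle group or without replicate 2 of the control siRNA dDAVP group, with adjusted p of 0.0711, 0.0674 and 0.0804. After TAZ siRNA the value was 0.27 ± 0.30 (adjusted p = 0.652), with a 95% interval of -0.42 to 0.97.

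The dDAVP groups of Aqp3 also did not overlap between siRNAs, at 1.02 ± 0.097 CPM with control siRNA and 0.549 ± 0.17 CPM with TAZ siRNA. The difference was -0.89 ± 0.28 on the log2 scale and narrowly missed the threshold with edgeR (adjusted p = 0.0513). It was called with DESeq2 (adjusted p = 0.0457), limma-voom (adjusted p = 0.0408), edgeR on the compared groups alone (adjusted p = 0.0417) and without replicate 3 of the TAZ siRNA dDAVP group (-1.13, adjusted p = 0.041). With vehicle, the value for Aqp3 was -0.17 ± 0.30 (adjusted p = 0.821). Aqp3 shared a run of 51 identical bases with 4930563E22Rik in the GENCODE transcripts, so a part of its few counts could be divided differently.

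Aqp5, the channel known from glands and lung, was well counted in every library. It had 277, 204 and 304 counts with control siRNA and vehicle and 1280, 1292 and 1295 with control siRNA and dDAVP. After TAZ siRNA it had 352, 245 and 288 counts with vehicle and 978, 879 and 722 with dDAVP. In CPM, the vehicle libraries lay between 3.99 and 5.68 CPM under either siRNA and overlapped, and all 6 dDAVP libraries lay at or above 15.9 CPM. Aqp5 rose by 2.20 ± 0.11 on the log2 scale after control siRNA, a 4.6-fold change (edgeR adjusted p = 1.03e-10). After TAZ siRNA it rose by 1.83 ± 0.11, a 3.56-fold change (adjusted p = 1.96e-09).

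With dDAVP, Aqp5 averaged 22.3 ± 1.2 CPM after control siRNA and 17 ± 1.5 CPM after TAZ siRNA, and the groups did not overlap. The change was -0.39 ± 0.09 on the log2 scale (adjusted p = 0.0123), or 1.31-fold lower. This call was lost without replicate 3 of the control siRNA dDAVP group (adjusted p = 0.066) and without replicate 1 (adjusted p = 0.0566) or replicate 3 (adjusted p = 0.0648) of the TAZ siRNA dDAVP group. With vehicle, Aqp5 stood at 4.82 ± 0.45 CPM and 4.77 ± 0.85 CPM, a difference of -0.02 ± 0.12 (adjusted p = 0.959) with a 95% interval of -0.29 to 0.25.

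Aqp6, the vesicular channel described in intercalated cells, had the most counts of the 7 genes in each vehicle library. Its libraries held 968, 809 and 1048 counts with control siRNA and vehicle, 2216, 2202 and 2008 with control siRNA and dDAVP, 838, 545 and 649 with TAZ siRNA and vehicle, and 1470, 1428 and 1182 with TAZ siRNA and dDAVP. The 4 groups did not overlap in CPM: 8.87 to 13.5 CPM, 17.2 to 18 CPM, 24.7 to 30.3 CPM and 36.2 to 38 CPM, in the order TAZ siRNA vehicle, control siRNA vehicle, TAZ siRNA dDAVP, control siRNA dDAVP. With dDAVP, Aqp6 rose by 1.08 ± 0.11 on the log2 scale after control siRNA (edgeR adjusted p = 2.51e-06) and by 1.30 ± 0.11 after TAZ siRNA (adjusted p = 9.51e-07). TAZ siRNA went with a lower level both with vehicle (-0.67 ± 0.11, adjusted p = 0.0026) and with dDAVP (-0.45 ± 0.10, adjusted p = 0.0103).

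The Aqp6 counts were the sum of 2 transcript models that share their 3′ part, and the division between them varied widely. The longer model took 0 to 26.8% of the Aqp6 counts in the control siRNA vehicle libraries and 5.6 to 60.5% in the control siRNA dDAVP libraries. In the TAZ siRNA groups it took 24.8 to 31.3% with vehicle and 7.02 to 25.2% with dDAVP. The ranges overlap between the 2 dDAVP groups, so the share did not separate them. Counting the shorter model alone, a check chosen after this spread was seen, gave 0.81 for dDAVP after control siRNA (adjusted p = 0.12), -0.90 for TAZ siRNA with vehicle (adjusted p = 0.183) and -0.22 for TAZ siRNA with dDAVP (adjusted p = 0.73). Those 3 calls for Aqp6 thus hold for the gene total only. The dDAVP rise after TAZ siRNA was called either way.

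**Figure D1:**
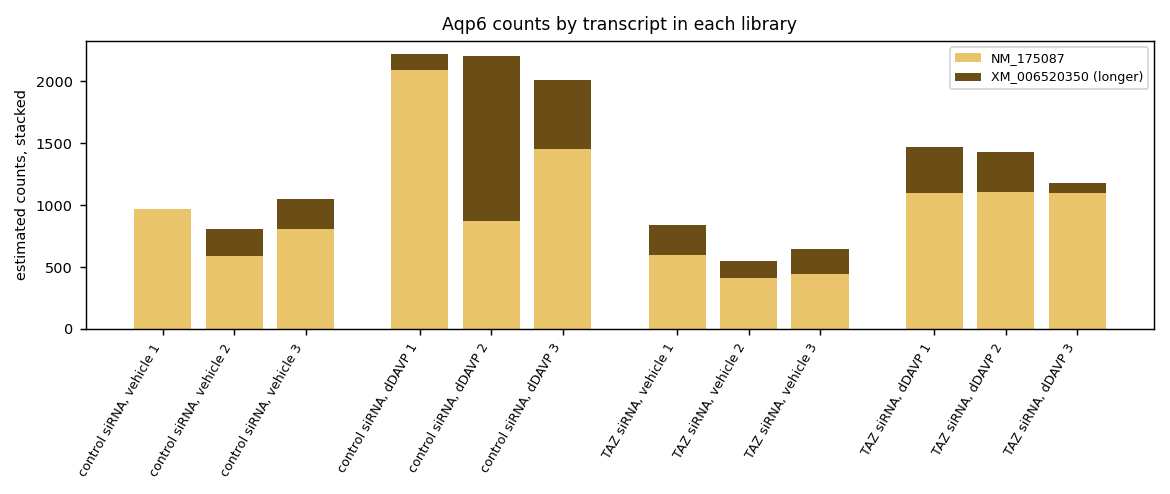
Estimated counts of Aqp6 (y axis, linear) in each of the 12 libraries (x axis), stacked by transcript model. The totals are even within the control siRNA dDAVP group (2008 to 2216 counts) while the share of the longer model there runs from 5.6 to 60.5%.

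Of 10 genes listed as intercalated cell markers, a list that includes Aqp6 itself, 7 had a count. Their summed level was 177 to 191 CPM with control siRNA and vehicle, 252 to 266 CPM with control siRNA and dDAVP, 157 to 176 CPM with TAZ siRNA and vehicle, and 212 to 235 CPM with TAZ siRNA and dDAVP. Scaled by library totals alone, most of it came from Atp6v1b1 (81.6 to 105 CPM), Car2 (54.5 to 87.5 CPM), Atp6v0a4 (11 to 35.5 CPM) and Aqp6 itself. Atp6v0d2, Slc4a1 and Slc4a9 reached at most 5, 10 and 25 counts in a library. Foxi1, the factor that specifies these cells, and Slc26a4 and Atp6v1g3 were at 0 in all 12 libraries. Their part in the Aqp6 values was not tested. In bulk RNA, fewer cells of a type and less RNA per cell cannot be told apart.

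Aqp11, the channel of the endoplasmic reticulum, was counted 3 to 27 times per library. It had 3, 8 and 15 counts with control siRNA and vehicle, 27, 20 and 19 with control siRNA and dDAVP, 21, 8 and 9 with TAZ siRNA and vehicle, and 21, 18 and 26 with TAZ siRNA and dDAVP. Within each siRNA the dDAVP group lay above the vehicle group without overlap in CPM, but TAZ siRNA with vehicle (up to 0.339 CPM) overlapped control siRNA with dDAVP (from 0.329 CPM). Aqp11 passed the filter on low counts only through its dDAVP libraries, which favours a rise, so this order is no support for one. The values were 1.23 ± 0.49 on the log2 scale after control siRNA (edgeR adjusted p = 0.0968) and 1.07 ± 0.47 after TAZ siRNA (adjusted p = 0.168), so neither passed. Between siRNAs the values were 0.35 ± 0.53 with vehicle (adjusted p = 0.782) and 0.19 ± 0.44 with dDAVP (adjusted p = 0.845). Leaving out 1 library moved the Aqp11 value after control siRNA from 0.80 (without vehicle replicate 1) to 1.79 (without vehicle replicate 3), and the value after TAZ siRNA from 0.83 (without vehicle replicate 2) to 1.63 (without vehicle replicate 1). Aqp11 also shared a run of 49 identical bases with Glo1 in the GENCODE transcripts, so a part of its few counts could be divided differently.

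Aqp1, the channel of the proximal tubule, and Aqp4, the other basolateral channel of principal cells, had too few counts to be tested. Aqp1 had 0 to 10 counts per library and Aqp4 had 3 to 15. Summed over groups, Aqp1 went from 16 counts to 20 with dDAVP after control siRNA, a ratio of 1.15 with an exact interval of 0.567 to 2.38. Aqp4 went from 20 to 28 counts, a ratio of 1.29 with an interval of 0.701 to 2.42. Aqp4 lies on chromosome 18, and of its 9 transcript models 1 carried all of its counts. Outside the 7 genes, Aqp8, Aqp9 and Aqp12 were at 0 in all 12 libraries. A 0 in 1 library allows up to 3 counts, or 0.0665 CPM in the shallowest library, and 0 in all 12 allows less. Mip, the lens aquaporin, reached 4 counts, and Aqp7 had 3 counts in a single library.

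**Figure D2:**
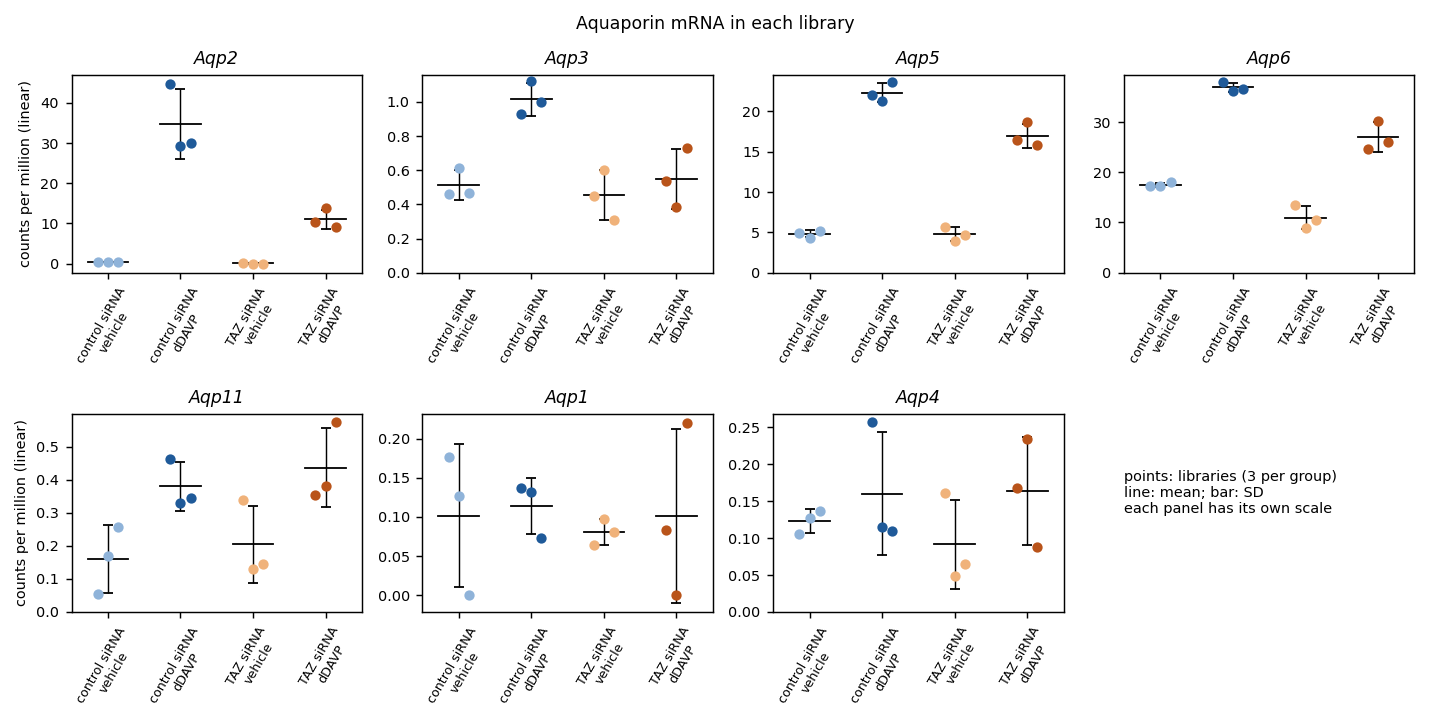
CPM (y axis, linear, a separate scale for each gene) of the 7 aquaporin genes in the 4 groups. Points are libraries, lines are means and bars are SDs (n = 3). Within each siRNA, the dDAVP and vehicle groups of Aqp2, Aqp5, Aqp6 and the low-count Aqp11 do not overlap. Those of Aqp3 do not overlap with control siRNA only. The share of all tested genes without such overlap was not counted, so the separation is a description and no result about these genes. Aqp11 passed the filter on low counts only through its dDAVP libraries. Aqp1 and Aqp4 stay below 0.26 CPM.

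Of the 7 genes, 5 passed the filter on low counts and were tested, Aqp11 only through its dDAVP libraries. Aqp2, Aqp3, Aqp5 and Aqp6 were called higher with dDAVP after control siRNA, that is 4 of 5, where 9.72% of the 15932 tested genes were called higher and 9.48% lower. After TAZ siRNA, Aqp2, Aqp5 and Aqp6 were called higher with dDAVP (3 of 5), against 6.38% of all tested genes called higher and 4.41% lower. TAZ siRNA with vehicle called Aqp6 lower (1 of 5), where 3.11% of genes were called lower and 3.19% higher. With dDAVP it called Aqp2, Aqp5 and Aqp6 lower (3 of 5), where 4.97% of genes were called lower and 5.77% higher. Each pair of comparisons that involves the same group shares its libraries, so these counts are not independent of each other. The 7 genes were chosen with earlier results of these data known, so the counts are a description and no test of the family.

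**Figure D3:**
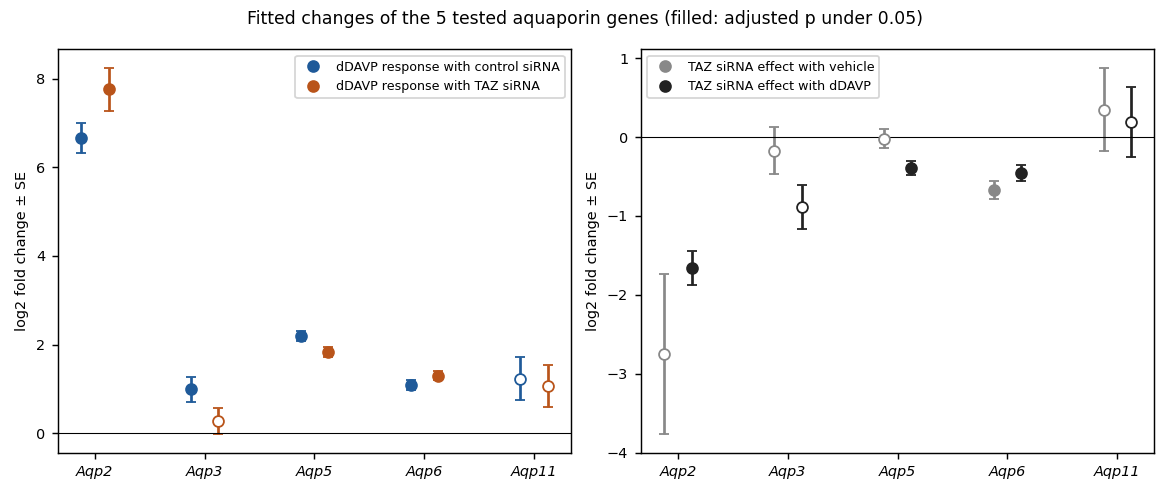
Log2 fold changes with their SEs (y axis) of the 5 tested aquaporin genes (x axis), for dDAVP against vehicle on the left and TAZ siRNA against control siRNA on the right. Filled points have an adjusted p under 0.05. Aqp2 lies highest on the left, at 6.66 and 7.76, and lowest on the right, at -2.75 and -1.66.

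Whether the dDAVP responses differed between the siRNAs was tested as an interaction. None of the 5 aquaporin genes was called (0 of 5 with edgeR, DESeq2 or limma-voom), and 1 of 5, Aqp5, had an unadjusted p under 0.05. Over all 15932 genes, 0.0126% were called with a higher and 0.0188% with a lower response after TAZ siRNA. For Aqp5 the difference was -0.37 ± 0.15 on the log2 scale (unadjusted p = 0.0238, adjusted p = 0.516), and it ran from -0.48 without replicate 2 to -0.22 without replicate 1 of the TAZ siRNA vehicle group. For Aqp3 it was -0.72 ± 0.41 (adjusted p = 0.675), with a 95% interval of -1.67 to 0.23, so the call of Aqp3 after control siRNA only is not shown to be a difference between the siRNAs. The value for Aqp6 was 0.22 ± 0.15 (adjusted p = 0.75), and it ran from 0.09 to 0.40 without the same 2 libraries. The interval for Aqp2, -1.46 to 3.65, was wide, with 9 counts in all at its baseline after TAZ siRNA. A missed threshold does not show that the responses were alike.

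Ratios between the 3 adjacent genes were compared within libraries. With dDAVP, the ratio of Aqp2 counts to Aqp5 counts was 2.04, 1.38 and 1.27 after control siRNA and 0.625, 0.734 and 0.572 after TAZ siRNA. The groups did not overlap, and the ratio differed by -1.26 on the log2 scale (2-sided exact permutation p = 0.1, the smallest that 3 against 3 allows). Aqp2 over Aqp6 gave 1.18, 0.808 and 0.82 against 0.416, 0.452 and 0.349, a difference of -1.19 (exact p = 0.1). Aqp5 over Aqp6 gave 0.578, 0.587 and 0.645 against 0.665, 0.616 and 0.611, which overlapped (exact p = 0.4). With vehicle, Aqp5 over Aqp6 was 0.286, 0.252 and 0.29 after control siRNA and 0.42, 0.45 and 0.444 after TAZ siRNA, without overlap (exact p = 0.1). None of these 4 tests could reach 0.05.

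Levels can be compared between genes per transcript length, as FPKM (fragments per kilobase of transcript, scaled to library size). With control siRNA and vehicle, Aqp6 was highest at 6.49 ± 0.49 FPKM, followed by Aqp5 at 2.86 ± 0.28, Aqp3 at 0.262 ± 0.045 and Aqp2 at 0.212 ± 0.0033. Aqp11 (0.105 ± 0.074), Aqp1 (0.0317 ± 0.028) and Aqp4 (0.019 ± 0.0041) came last, and in that tail Aqp11 overlapped Aqp1 and Aqp1 overlapped Aqp4. With control siRNA and dDAVP, Aqp2 led at 22.5 ± 5.8 FPKM, above Aqp5 at 13.2 ± 0.73 and Aqp6 at 12.6 ± 2.5, which overlapped each other. Aqp3 followed at 0.524 ± 0.053, Aqp11 at 0.255 ± 0.054, Aqp1 at 0.0365 ± 0.012 and Aqp4 at 0.0255 ± 0.015, the last pair again overlapping.

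After TAZ siRNA with vehicle, Aqp6 stood at 3.81 ± 0.79 FPKM and Aqp5 at 2.85 ± 0.51, which overlapped and changed places when counts per kilobase of the longest transcript were used. Below them, Aqp3 (0.233 ± 0.077), Aqp11 (0.142 ± 0.082), Aqp2 (0.0306 ± 0.053), Aqp1 (0.0247 ± 0.0075) and Aqp4 (0.0139 ± 0.012) each overlapped the next in order. After TAZ siRNA with dDAVP, Aqp5 at 10 ± 1 FPKM, Aqp6 at 9.89 ± 1.2 and Aqp2 at 7.14 ± 1.6 came first. Aqp5 overlapped Aqp6 and Aqp6 overlapped Aqp2, but Aqp2 (5.82 to 8.99 FPKM) lay below Aqp5 (9.29 to 11.2 FPKM) without overlap. Aqp6 and Aqp2 changed places when counts per kilobase of the longest transcript were used. The first place that Aqp2 held with control siRNA and dDAVP was not seen here. Aqp11 (0.297 ± 0.08) and Aqp3 (0.282 ± 0.084) overlapped, and Aqp1 (0.0321 ± 0.036) and Aqp4 (0.0251 ± 0.011) came last.

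FPKM was also summed over 12 aquaporin family genes: the 7 genes and Mip, Aqp7, Aqp8, Aqp9 and Aqp12, which add little. The sum was 9.99 ± 0.63 with control siRNA and vehicle and 49.1 ± 8.1 with control siRNA and dDAVP. After TAZ siRNA it was 7.11 ± 1.4 with vehicle and 27.7 ± 3.4 with dDAVP. Aqp2 made up 2.13 ± 0.12% of that sum with control siRNA and vehicle, 45.5 ± 4.4% with control siRNA and dDAVP, 0.353 ± 0.61% with TAZ siRNA and vehicle, and 25.6 ± 3% with TAZ siRNA and dDAVP. Aqp6 made up 65 ± 1.9%, 25.5 ± 1.7%, 53.5 ± 0.62% and 35.7 ± 2.6% in the same order. The FPKM of Aqp6 moves with the division between its transcript models, which differ in length. Among genes with an FPKM above 0 in a library, Aqp2 stood at the 25.7 to 27.7 percentile with control siRNA and vehicle and at the 78.6 to 86.8 percentile with control siRNA and dDAVP.

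**Figure D4:**
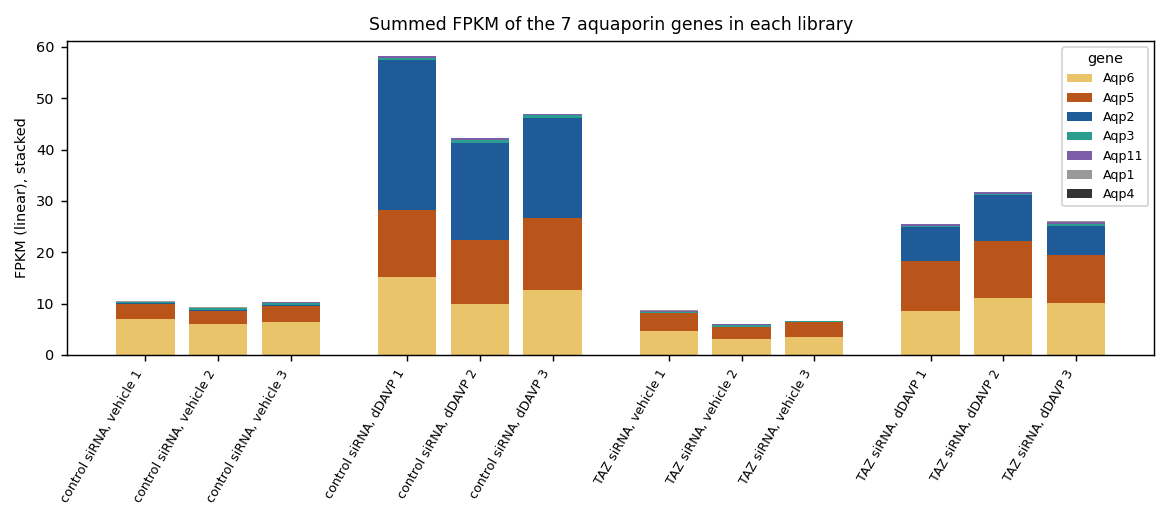
FPKM of the 7 aquaporin genes (y axis, linear) stacked for each of the 12 libraries (x axis). The sum over all 12 aquaporin family genes averages 9.99 with control siRNA and vehicle and 49.1 with control siRNA and dDAVP, of which Aqp2 makes up 2.13% and 45.5%.

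Within 100 kb of the cluster of Aqp2, Aqp5 and Aqp6 lie 8 other genes, of which 6 were tested. With dDAVP after control siRNA, 3 of these 6 were called higher and 2 lower, where 9.72% of all tested genes were called higher and 9.48% lower. Faim2, on the Aqp2 side, rose by 0.64 ± 0.21 on the log2 scale (edgeR adjusted p = 0.044) and Gm34939 by 0.36 (adjusted p = 0.0339). Asic1, an acid-sensing ion channel, rose by 1.58 ± 0.45 (adjusted p = 0.0189) on 4 to 26 counts per library. Scaled by library totals alone, Asic1 averaged 0.124 CPM with control siRNA and vehicle and 0.119 CPM with TAZ siRNA and vehicle. With control siRNA and dDAVP it averaged 0.372 CPM. It may have passed the filter on low counts only through its dDAVP libraries. Its place among the genes called higher would then rest partly on that filter. Racgap1, the nearest gene on the Aqp6 side at 15 kb, fell by 0.14 (adjusted p = 0.00317), and Smarcd1 fell by 0.15 (adjusted p = 0.00436). All 5 values were smaller than those of Aqp2 and Aqp5 in the same comparison. With its SE of 0.45, the value of Asic1 is not told apart from the 1.08 ± 0.11 of Aqp6, and no test compared them. Faim2 was also lower after TAZ siRNA with vehicle (-1.03, adjusted p = 0.0139).

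Gm34765 is annotated on the minus strand at chr15:99575652-99601542, across Aqp2, Aqp5 and the start of Aqp6. It had 0 to 32 counts per library, rose by 2.38 ± 0.66 on the log2 scale with dDAVP after TAZ siRNA (adjusted p = 0.0262) and stood at 1.75 ± 0.68 after control siRNA (adjusted p = 0.083). Scaled by library totals alone, Gm34765 went from 0.0763 to 0.403 CPM after TAZ siRNA and from 0.0878 to 0.294 CPM after control siRNA. It may have passed the filter on low counts only through its dDAVP libraries, which favours a rise. The labels name a stranded kit beside another kit, and no source used here says whether the counting took strand into account. Reads of Gm34765 and of the 3 aquaporin genes may therefore not be told apart.

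**Figure D5:**
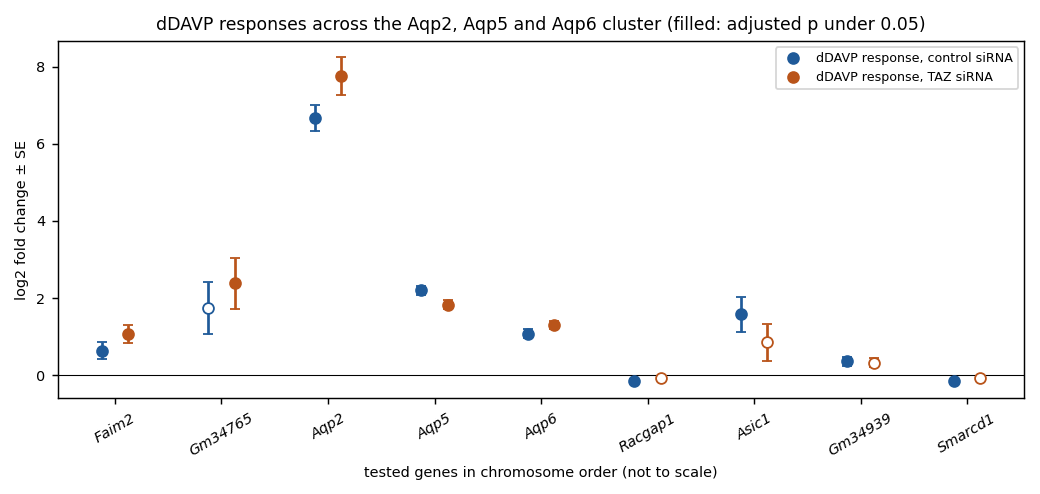
Log2 fold changes with dDAVP and their SEs (y axis) of the 9 tested genes of the cluster and its surroundings, in chromosome order (x axis, not to scale), after control or TAZ siRNA. Filled points have an adjusted p under 0.05. Aqp2 is highest, at 6.66 and 7.76, and Racgap1 and Smarcd1 lie close to 0.

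Across the 12 libraries, the levels of Aqp2 and Aqp6 had a Pearson correlation of 0.984, those of Aqp2 and Aqp5 0.964, and those of Aqp5 and Aqp6 0.922. These are correlations of log2 CPM over libraries that share the same 4 groups, and they are given as a description. Of 15931 other genes, the most like Aqp2 were Atp6v0a4 (r = 0.993), a proton pump subunit, Kcnq1 (0.990), a potassium channel, Fxyd2 (0.987), the gamma subunit of the sodium pump, Crabp2 (0.985) and Rassf6 (0.985). Those most like Aqp5 were Il6ra (0.997), Atp1b1 (0.996), the beta subunit of the sodium pump, Chp1, Tjp3 and Adora1 (0.993 each). Aqp6 was most like Gsdmc4 (0.990), Lbp (0.988), Soat1 (0.986), Slc25a48 and Fcgbp (0.984 each). For Aqp3 the first was Skp1a (0.954) and for Aqp11 Atp4a (0.932). The ranks by Spearman correlation shared 0 of the 5 genes for Aqp2, 2 for Aqp3, and 1 each for Aqp5, Aqp6 and Aqp11, so the order among genes this close is not stable.

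The genes that carry the vasopressin signal to Aqp2 had smaller fold changes than Aqp2 itself. Of 24 genes of the V2 receptor, cAMP and protein kinase A pathway, 22 were tested. With dDAVP after control siRNA, 11 rose and 3 fell, where 9.72% of all tested genes were called higher and 9.48% lower. The median of the list was 0.112 on the log2 scale, against -0.001 over all tested genes. Avpr2, the V2 receptor, averaged 29.5 CPM with vehicle and 45 CPM with dDAVP, a rise of 0.61 ± 0.07 (edgeR adjusted p = 9.8e-06). Adcy6, the main adenylyl cyclase of this pathway, rose by 0.22 ± 0.03 (adjusted p = 0.000123), and Gnas, which encodes the stimulatory G protein, fell by 0.11 ± 0.03 (adjusted p = 0.0227). The largest rises of the list were in Pde4b (3.78 ± 0.09, adjusted p = 8.03e-15) and Pde4d (2.47 ± 0.09, adjusted p = 2.51e-12), phosphodiesterases that break down cAMP. Its largest falls were in Rapgef3, a cAMP-regulated exchange factor, and Akap7, an anchor of protein kinase A (-0.22 each).

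With dDAVP, TAZ siRNA went with 4 lower genes among the 22 of the pathway list, where 4.97% of all tested genes were called lower. Avpr2 was at 35.1 CPM against 45 CPM, a change of -0.36 ± 0.07 (edgeR adjusted p = 0.00356), and Prkar2b, a regulatory subunit of protein kinase A, changed by -0.26 ± 0.05 (adjusted p = 0.00152). Avpr2 was also lower with vehicle (-0.31 ± 0.07, adjusted p = 0.0183). These changes moved with the Aqp2 levels, and their part in them was not tested. Creb1, the factor that binds the cAMP response element, was at -0.11 ± 0.05 with dDAVP (adjusted p = 0.147).

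Of 37 transcription factors linked to Aqp2, 33 were tested, and 10 rose and 6 fell with dDAVP after control siRNA, against 9.72% and 9.48% of all tested genes. Crem, a cAMP-responsive factor, rose by 0.80 ± 0.12 (edgeR adjusted p = 7.87e-05) and Fos, an AP-1 subunit, by 0.53 ± 0.08 (adjusted p = 0.000119). Jun, another AP-1 subunit, fell by 0.54 ± 0.04 (adjusted p = 7.34e-08) and Nfat5, the tonicity factor, by 0.31 ± 0.05 (adjusted p = 0.000366). With dDAVP, TAZ siRNA went with 4 higher and 6 lower factors, against 5.77% and 4.97% of all tested genes, among them Jund (0.26 ± 0.04), Tfcp2l1 (0.17 ± 0.04), Jun (-0.23 ± 0.04) and Fosl2 (-0.21 ± 0.05).

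Of 42 genes of AQP2 trafficking and turnover, all tested, 4 rose and 5 fell with dDAVP after control siRNA, with a median of 0.018. These counts lie near the shares over all tested genes (9.72% higher, 9.48% lower) and are no result about the list. Nedd4l, a ubiquitin ligase, rose by 0.39 ± 0.04 (edgeR adjusted p = 2.73e-06) and Vamp8, a vesicle fusion protein, by 0.26 ± 0.06 (adjusted p = 0.00622). Msn, which links actin to the membrane, fell by 0.33 ± 0.04 (adjusted p = 3.22e-05). With dDAVP, TAZ siRNA went with 5 higher genes of this list, among them Myo1c (0.28 ± 0.04), and 1 lower, Lima1 (-0.13 ± 0.03), where 5.77% of all tested genes were called higher and 4.97% lower.

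Of 17 other principal cell genes, 14 were tested, and 3 rose and 2 fell with dDAVP after control siRNA, against 9.72% and 9.48% of all tested genes. Atp1b1 rose by 0.79 ± 0.04 (edgeR adjusted p = 7.92e-10). Slc14a2, the urea transporter of the inner medulla, was at 0 with vehicle under either siRNA and averaged 0.138 CPM with control siRNA and dDAVP. It had at most 15 counts in a library. It could pass the filter on low counts only through dDAVP libraries, so its rise, 1 of the 3, was fixed by that filter. Scnn1a, a subunit of the epithelial sodium channel, fell by 0.51 ± 0.03 (adjusted p = 2.34e-09) and St6gal1, a sialyltransferase, by 0.99 ± 0.05 (adjusted p = 8.47e-11). With dDAVP, Scnn1a was higher after TAZ siRNA (0.34 ± 0.03, adjusted p = 5.54e-06), the opposite direction to Aqp2. Of 10 osmotic response genes, 3 rose and 1 fell with dDAVP after control siRNA, beside the same shares of all tested genes. Slc5a3, the myo-inositol transporter, rose by 0.73 ± 0.06 (adjusted p = 5.45e-08) and was lower after TAZ siRNA with dDAVP (-0.20 ± 0.06, adjusted p = 0.0267).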

How the data were processed

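Messenger RNA was sequenced from 12 mpkCCDc11 libraries in 4 groups of 3. Bowtie 0.12.2 and the builds mm8 and mm10 appear, with no role, in the submitters' processing notes. The counting tool and its strand setting are not given in the sources used here. Per the file headers, the authors deposited estimated counts, which are whole numbers and not normalised, and FPKM values, both per gene and per transcript. A further 24 per-sample columns stayed unused. The design had assumed read counts, and the count test was kept for these estimates. The 7 genes and the gene lists were chosen with earlier results of these data known.

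Genes were tested with edgeR 4.0.16 (R 4.3.3) by its quasi-likelihood F test, with TMM scaling, the filterByExpr filter at a minimum count of 10 and 1 mean per group over all 12 libraries. Of 45777 genes, 15932 were tested, and a gene was called at a Benjamini-Hochberg adjusted p under 0.05. An SE is the absolute log2 fold change divided by the square root of F, and 95% intervals use the residual degrees of freedom of the libraries alone. Intervals of count ratios are exact conditional binomial. The fit was tested on simulated data. Alternatives were DESeq2 1.42.0, limma-voom (limma 3.58.1), RLE scaling, no filter, the compared groups alone, a replicate block and each library left out. Named genes were the 7 aquaporins, their family, the genes within 100 kb, the 5 most correlated genes of each tested aquaporin, of each list the 2 called genes with the largest rise and the 2 with the largest fall in each of 2 comparisons (dDAVP after control siRNA, and TAZ siRNA with dDAVP), and Avpr2, Gnas, Adcy6, Creb1, Scnn1a and Nfat5. A gene that this rule selects is not reported here. No protein sequence is given. Upstream sequences are RefSeq's.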

Additional observations from a re-analysis of the deposited data

How the results depend on the processing

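Across 321 refits of the 5 tested aquaporin genes, 306 stayed on the same side of the threshold, 9 lost a call, 6 gained one, and no called value changed sign. The calls of Aqp2 and Aqp5 with dDAVP under either siRNA, and of Aqp2 after TAZ siRNA with dDAVP, were kept under every alternative run. Aqp6 lost calls only when its shorter transcript was counted alone (0.81, -0.90 and -0.22 for dDAVP after control siRNA, TAZ siRNA with vehicle and TAZ siRNA with dDAVP). For TAZ siRNA with vehicle, Aqp2 gained a call with DESeq2 (-2.81) and with the compared groups alone (-2.76). For TAZ siRNA with dDAVP, Aqp3 gained one with DESeq2 (-0.90), limma-voom (-0.92) and the compared groups alone (-0.89).

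With 1 library left out, Aqp3 ranged from 0.91 to 1.13 for dDAVP after control siRNA and from -1.13 to -0.70 for TAZ siRNA with dDAVP, and Aqp5 from -0.47 to -0.35 for TAZ siRNA with dDAVP. Genes called then ranged from 1118 to 1752 for dDAVP after TAZ siRNA, 410 to 1435 for TAZ siRNA with vehicle, 1049 to 1625 for TAZ siRNA with dDAVP, and 3 to 16 for the difference of responses, which was 12 without the filter and 87 with DESeq2. The cause was not tested.

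The 18 correlations of same-numbered libraries were weak and lay between -0.043 and 0.08. Among both vehicle groups and the control siRNA dDAVP group they were all positive, from 0.011 to 0.08. With the TAZ siRNA dDAVP group they had mixed signs, from -0.043 to 0.056. In all, 7 of 12 libraries correlated best with their own number. Whether same-numbered libraries shared a batch was not tested. With the replicate block, 1518 genes were called higher and 1465 lower for dDAVP after control siRNA, and no aquaporin call changed. Of 2247 refits of 35 other named genes, 86 lost and 26 gained a call. Low counts limit Aqp1, Aqp3, Aqp4, Aqp11 and the vehicle levels of Aqp2. Among the other named genes they also limit Asic1, Gm34765 and Slc14a2.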
